A study of Mus musculus with 7 samples.

Results

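Hepatokines are proteins that the liver secretes and that act on metabolism elsewhere in the body. Their transcripts were followed in liver RNA of Zfp90 transgenic mice and wild-type mice for 9 genes: Fgf21, Angptl4, Angptl6, Prg4, Fetub, Ahsg, Lect2, Inhbe and Rbp4. They were taken as the probes whose platform annotation carries exactly 1 of these symbols. Each of the 9 genes had 1 probe, so the set is 9 of 16468 named genes, within 22218 features in all. The rule uses gene symbols alone, and the set was proposed with earlier results of these data known.

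Liver hormones of this kind report the nutritional state of the hepatocyte to other tissues. Fgf21 is made in fasting through the nuclear receptor PPAR alpha, in sugar feeding through the factor ChREBP and in amino acid shortage or ER stress through the factor ATF4, and it signals through FGF receptors that need the co-receptor beta-klotho (Klb). Angptl4 inhibits lipoprotein lipase, the enzyme that releases fatty acids from circulating lipoproteins. Fetuins, Lect2 and Rbp4 have been tied to insulin sensitivity in muscle and fat.

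The transgenic group held 3 mice, 1 female and 2 males, and the wild-type group held 4, 1 female and 3 males, described as littermates. Total liver RNA of each mouse was hybridised to a 2-colour array, labelled with Cy5, against Cy3-labelled RNA pooled from the livers of 4 wild-type mice of both sexes. Which promoter drives the transgene, how many founder lines were used, and the strain and age of the mice are not given in the sources used here. Every value below is a log2 ratio of 1 mouse to that pool, or a difference between such ratios, so levels of different genes cannot be compared. The labels do not state the sign of the deposited ratios, and positive was read as higher in the mouse because the Y-linked Kdm5d was below 0 on both female arrays and above 0 on all 5 male arrays. Values of single mice are listed with the female first, then transgenic males 1 and 2 or wild-type males 2, 3 and 4. Tissue identity cannot be tested with ratios of liver to liver. Hepatocyte markers (12 of 12 measured) had medians between -0.41 and -0.05 on the transgenic arrays and between -0.06 and 0.05 on the wild-type arrays.

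The array medians over all features ran from -0.01 to 0.03. Zfp90 itself read 0.34, 0.58 and 0.45 in the transgenic mice, against -0.15, -0.29 and -0.11 in the wild-type males. The array labelled wild-type female read 0.37. That array therefore does not read like the other wild-type arrays for the transgene's gene. Between the 2 females Zfp90 differed by -0.02, transgenic minus wild type, and over all 7 mice the genotypes overlapped. The other wild-type arrays are all male, so a difference by sex and a wrong label cannot be told apart for that array. Whether its genotype label is right was not tested. Results are also given from the 5 males alone, which leaves that array out. With 1 female per genotype, leaving out either female gives the same fit as the males alone. No intensities were used here, so a ratio near 0 from equal RNA cannot be told apart from one of a probe near background or saturation. Precision is limited by having 7 arrays. In bulk liver, fewer cells of a type and less RNA per cell cannot be told apart either.

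These upstream regions are printed because they hold the letters TGATGNAA, the core of the element at which ATF4 pairs with a C/EBP protein, and the Atf4 transcript is described further on. They are the 250 bases before the annotated start of Fgf21 (chr7:45615491-45615740), Inhbe (chr10:127351849-127352098) and Rbp4 (chr19:38125322-38125571), all on the minus strand of GRCm38.p6, from RefSeq, written 5′ to 3′ along the gene, with the matching 8 bases in capitals.
Fgf21: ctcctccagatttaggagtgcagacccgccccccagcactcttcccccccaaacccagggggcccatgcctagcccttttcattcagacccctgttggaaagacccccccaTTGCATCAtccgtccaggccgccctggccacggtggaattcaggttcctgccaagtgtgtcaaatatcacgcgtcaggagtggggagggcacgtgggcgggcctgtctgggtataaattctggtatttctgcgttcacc
Inhbe: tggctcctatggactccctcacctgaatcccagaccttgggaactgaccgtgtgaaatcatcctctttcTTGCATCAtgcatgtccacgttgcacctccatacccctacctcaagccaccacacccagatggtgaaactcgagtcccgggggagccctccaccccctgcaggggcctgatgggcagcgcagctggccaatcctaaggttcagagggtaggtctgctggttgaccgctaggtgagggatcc
Rbp4: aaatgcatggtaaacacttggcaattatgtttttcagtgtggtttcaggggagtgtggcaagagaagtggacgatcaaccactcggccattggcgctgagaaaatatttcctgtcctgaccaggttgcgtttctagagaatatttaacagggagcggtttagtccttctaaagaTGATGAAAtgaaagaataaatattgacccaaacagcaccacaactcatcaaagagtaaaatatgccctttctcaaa

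RefSeq start regions were matched for 7 of the 9 genes, in 9 windows, since Fetub and Rbp4 have more than 1 start. Both strands were searched over the 250 bases before each start. TGATGNAA lay in 3 of these 9 windows and in 3.45% of all 32851 windows of that length. It was found on the opposite strand at -139 to -132 from the start of Fgf21 and at -181 to -174 of Inhbe, and on the gene's own strand at -76 to -69 of Rbp4. The E-box letters CACGTG, a palindrome that ChREBP binds in pairs, lay at -50 to -45 of Fgf21 alone among the 9 windows, against 6.02% of all windows. TATAAA was found at -28 to -23 of Fgf21, at -31 to -26 of 1 Fetub start and at -28 to -23 of the other Rbp4 start, against 12.4% of all windows. AGGTCA, of which PPAR alpha and RXR bind a direct repeat, was in 0 of the 9 windows and in 4607 of all windows. No 2 of these motifs overlapped in a member's window, and each match is a match of letters only.

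Prg4 was the member that stood apart between the genotypes. Prg4 encodes lubricin, a secreted mucin-like proteoglycan best known as the lubricant of joints and also made by hepatocytes. Its log2 ratio to the pool was 0.68 in the transgenic female and 1.19 and 1.17 in the transgenic males, against 0.14 on the wild-type female's array and 0.11, -0.06 and -0.32 in the wild-type males. All 3 transgenic mice lay above all 4 wild-type mice, with a gap of 0.54 between the nearest pair. Transgenic mice averaged 1.01 ± 0.29 (SD, n = 3), against -0.03 ± 0.21 in wild-type mice (SD, n = 4). In limma's model with genotype and sex the difference was 1.05 ± 0.17 (SE), 2.07-fold, with a 95% interval of 1.58-fold to 2.72-fold. That interval takes no account of how many features were tested: the unadjusted p was 0.000331 and the p adjusted by Benjamini-Hochberg over all 22218 features was 0.475, so Prg4 did not pass the threshold of 0.05. It stood 13th of all features by p and 26th by signed difference, among 30 features that were higher by a log2 difference of 1 or more. Counting both directions, 52 features differed by 1 or more.

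The Prg4 difference had the same sign in males and between the females. In the 5 males alone it was 1.27 ± 0.15 (SE), 2.40-fold, at an adjusted p of 0.0921 in limma. Between the 2 females, whose Zfp90 ratios differed by -0.02, it was 0.54. The interaction of genotype and sex was -0.73 ± 0.27 (SE), female minus male, with an unadjusted p of 0.0332 and an adjusted p of 0.55. The interaction therefore did not pass, and its spread comes from the males alone, since each genotype has 1 female.

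**Figure D1:**
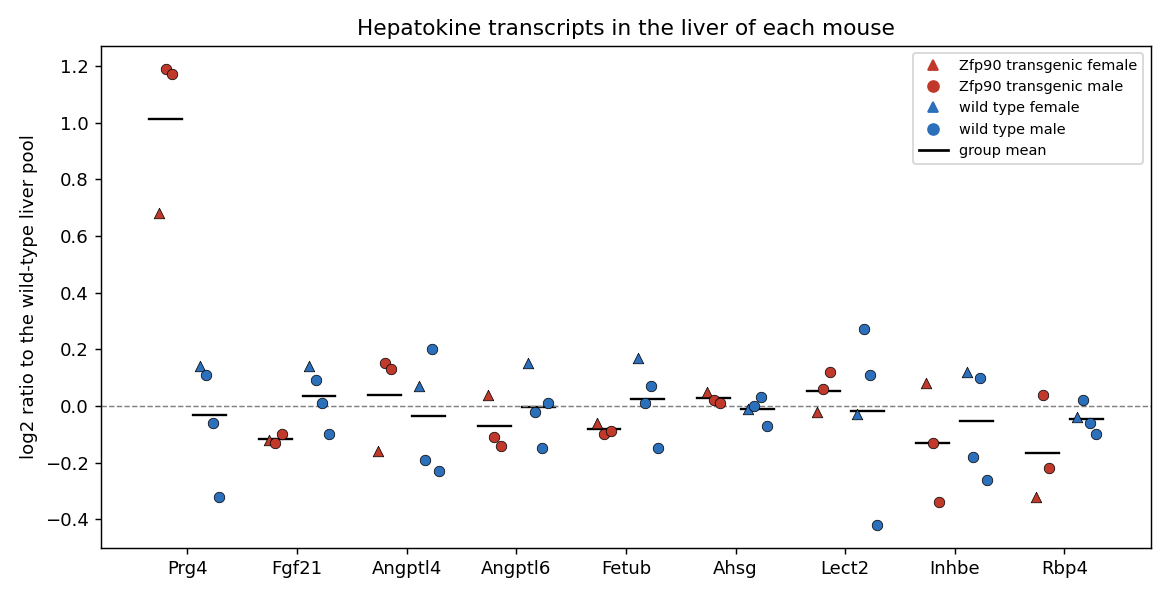
Log2 ratio to the wild-type liver pool (vertical axis) for the 9 hepatokine genes (horizontal axis), 1 point per mouse, with transgenic mice (red) left of wild-type mice (blue), females as triangles, males as circles and black lines at group means. Prg4 lies at 0.68 to 1.19 in the transgenic mice and -0.32 to 0.14 in the wild-type mice, while points of the other 8 genes lie between -0.42 and 0.27.

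Across the set, 0 of 9 genes passed the adjusted threshold in limma, where 0.0% of all features did (0 of 22218). In the males alone it was also 0 of 9, against 0.0315%. At an unadjusted p under 0.05 there was 1 of 9 in either direction, against 6.91% of all features. That was Prg4 on the higher side, against 3.82%, with 0 of 9 on the lower side, against 3.1%. One of 9, again Prg4, lay higher in every transgenic than in every wild-type mouse, against 3.17% of all features, and 0 of 9 lay lower throughout, against 2.84%. Among the males, Prg4 was also the 1 member of 9 without overlap, on the higher side, against 11.2% of all features, and 0 of 9 had no overlap on the lower side, against 11.4%. Differences were positive for 4 genes and negative for 5, with a median of -0.09, beside a median of -0.01 and 48.2% positive over all features. The counts are thus those of 1 gene, and the other 8 lay between -0.16 and 0.08.

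Fgf21, the fasting and stress hormone, read -0.12, -0.13 and -0.10 in the transgenic mice and 0.14, 0.09, 0.01 and -0.10 in the wild-type mice. The transgenic mice were close to each other (-0.12 ± 0.02, SD, n = 3) and the wild-type mice more spread (0.04 ± 0.10, SD, n = 4), and the groups overlapped by 0.001, through wild-type male 4. Among the 8 members other than Prg4 it had the smallest p. The difference was -0.16 ± 0.09 (SE), with an adjusted p of 0.769 and a 95% interval of 0.774-fold to 1.04-fold. In the males alone it was -0.11 ± 0.11 (SE).

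The 2 angiopoietin-like genes also overlapped between genotypes. Angptl4, the lipoprotein lipase inhibitor and a PPAR alpha target, read -0.16 in the transgenic female and 0.15 and 0.13 in the transgenic males, against 0.07 on the wild-type female's array and -0.19, 0.20 and -0.23 in the wild-type males. Its difference of 0.08 ± 0.14 (SE; adjusted p = 0.965 in limma) joined a value of -0.24 between the females with 0.21 ± 0.15 (SE) in the males, and the interaction did not pass (adjusted p = 0.708). Angptl6, also called angiopoietin-related growth factor and tied to energy expenditure in mice, read 0.04, -0.11 and -0.14 in transgenic and 0.15, -0.02, -0.15 and 0.01 in wild-type mice. Here the female came highest within each genotype. The difference between genotypes was -0.09 ± 0.09 (SE), adjusted p = 0.897 in limma.

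The fetuins are cystatin-related plasma proteins of hepatocytes, and fetuin-A is known to inhibit the insulin receptor. Ahsg (fetuin-A) and Fetub (fetuin-B) follow each other in the order of protein-coding genes of GRCm38.p6, with Hrg, Kng2 and Kng1 next. Ahsg had the narrowest spread of the 9 members, with 0.01 to 0.05 in transgenic mice, against -0.07 to 0.03 in wild-type mice, a range of 0.12 that 22115 of 22218 features exceeded. Its difference was 0.03 ± 0.08 (SE), adjusted p = 0.98 in limma, with a 95% interval of 0.897-fold to 1.17-fold. Fetub read -0.06, -0.10 and -0.09 in transgenic mice and 0.17, 0.01, 0.07 and -0.15 in wild-type mice. The wild-type female and wild-type males 2 and 3 lay above all transgenic mice and wild-type male 4 below them, for a difference of -0.12 ± 0.09 (SE; adjusted p = 0.849).

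Lect2, a hepatocyte-made chemotactic protein that has been tied to insulin resistance in muscle, read -0.02, 0.06 and 0.12 in transgenic and -0.03, 0.27, 0.11 and -0.42 in wild-type mice. The difference of 0.08 ± 0.17 (SE; adjusted p = 0.976 in limma) rested on wild-type male 4, the lowest array, and was -0.061 without it. The transgenic values lie inside the wild-type range. Lect2 had the second widest range of the members, 0.70, after Prg4 at 1.51.

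Inhbe, the mainly hepatic activin subunit beta E, read 0.08, -0.13 and -0.34 in transgenic and 0.12, -0.18, 0.10 and -0.26 in wild-type mice, which covers nearly the same span. Its difference was -0.10 ± 0.12 (SE; adjusted p = 0.923 in limma). Rbp4, the plasma carrier of retinol, read -0.32, 0.04 and -0.22 in transgenic mice and -0.04, 0.02, -0.06 and -0.10 in wild-type mice. The transgenic female and transgenic male 2 lay below all wild-type mice and transgenic male 1 above them, and the difference was -0.11 ± 0.10 (SE; adjusted p = 0.887).

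The 95% intervals show what these arrays could still hold for the 8 members other than Prg4. The lower bounds went down to 0.773-fold (Inhbe) and the upper bounds up to 1.38-fold (Lect2). The standard errors of the 8 were 0.08 to 0.17, beside a median of 0.12 over all features, and 7 of the 9 members had a range over the arrays below the median range of all features, 0.46. A p that misses the threshold does not show equal levels. With each array centred on its median or quantile normalized, the 9 directions stayed as given.

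**Figure D2:**
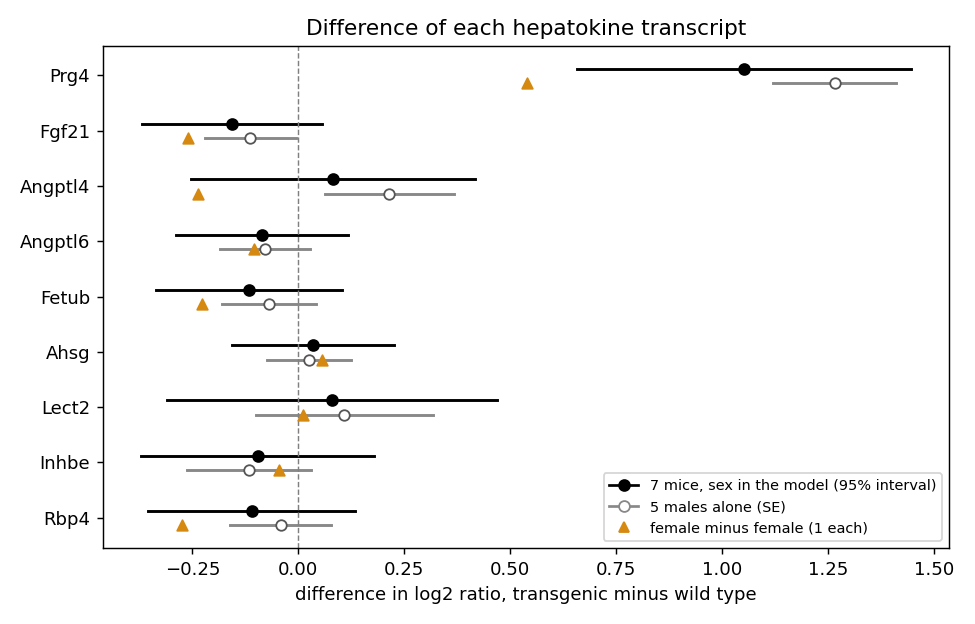
Difference in log2 ratio, transgenic minus wild type (horizontal axis), for the 9 genes (vertical axis), from the model with sex over 7 mice (black, 95% interval), from the 5 males alone (open circles, SE) and between the 2 females (triangles, 1 mouse each). The Prg4 interval runs from 0.66 to 1.45, and the intervals of the other 8 genes all include 0.

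By sex, 0 of 9 members passed limma's threshold for females against males, where 0.351% of all features did, and 0 of 9 had an unadjusted p under 0.05, against 9.23%. Inhbe differed most, averaging 0.10 in the 2 females and -0.16 in the 5 males, for a modelled difference of 0.27 ± 0.13 (SE; adjusted p = 0.604). Angptl6, at 0.10 and -0.08, differed by 0.19 ± 0.10 (SE; adjusted p = 0.639). It was the 1 member of 9 with both females above all males, against 6.04% of all features, and 0 of 9 had both below all males, against 6.83%. The interaction of genotype and sex passed for 0 of 9 members, against 0.072% of all features, and had an unadjusted p under 0.05 for 1 of 9, Prg4, against 8.42%.

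Around Fgf21, the co-receptor Klb had the smallest p of the receptor genes. Klb read -0.26, -0.49 and -0.42 in transgenic mice and 0.22, 0.09, -0.13 and 0.09 in wild-type mice, with no overlap. The difference was -0.47 ± 0.10 (SE), 0.72-fold, and -0.47 in the males alone, with adjusted p of 0.508 and 0.403 in limma, so it did not pass. Of 10 receptor and FGF family genes, all measured, 0 passed, and 2 had an unadjusted p under 0.05, both with negative differences: Klb and the growth factor Fgf1 (-0.45 ± 0.16 SE). In the males alone 1 of the 10 did, Klb, with Fgf1 at -0.23 ± 0.12 (SE). For this and the lists below, 6.91% of all features reached that unadjusted p over all mice, and 1546 of 22218 features in the males alone. The receptors Fgfr1 to Fgfr4 had differences of 0.07, -0.06, 0.07 and -0.04.

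The transcript of Atf4, whose protein binds elements with the core letters marked above, was likewise without overlap. Binding to the printed regions was not tested. Atf4 read -0.30, -0.41 and -0.46 in transgenic and 0.21, 0.06, -0.10 and -0.22 in wild-type mice, a difference of -0.39 ± 0.10 (SE; adjusted p = 0.653 in limma). It was the 1 gene of 18 measured for ATF4 and the integrated stress response with an unadjusted p under 0.05, and 0 passed. The list median was -0.06, with 11 of 18 negative. Asns, the asparagine synthetase and a classical ATF4 target, differed by -0.11 ± 0.10 (SE; adjusted p = 0.876).

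PPAR alpha targets, to which Fgf21 and Angptl4 belong, had negative differences in 11 of 15 measured genes (median -0.13), with 0 passing and 2 at an unadjusted p under 0.05. These were the mitochondrial carnitine carrier Slc25a20 (-0.47 ± 0.11 SE) and the pyruvate dehydrogenase kinase Pdk4 (-0.31 ± 0.13 SE). In the males alone Pdk4 was at -0.19 ± 0.14 (SE) and no longer reached that p. There 2 genes of the list still did, both negative, and the list median was -0.19. Ppara itself differed by -0.32 ± 0.20 (SE; adjusted p = 0.788). ChREBP and glucose-responsive genes had positive differences in 10 of 14 (median 0.14), 0 passing and 4 at an unadjusted p under 0.05, all positive, among them the triokinase Tkfc (0.96 ± 0.19 SE). The largest difference of this list was that of the desaturase Scd1, 1.59 ± 0.14 (SE; adjusted p = 0.0947 in limma), and in the males alone Scd1 was the 1 gene of the list that passed (1.40 ± 0.10 SE; adjusted p = 0.026). The ChREBP gene Mlxipl differed by 0.04 ± 0.12 (SE) and the pyruvate kinase Pklr by 0.04 ± 0.12 (SE). The 4 negative genes of this list were Gpd1, Mlx, G6pc and Txnip, at -0.055, -0.14, -0.15 and -0.55. Of 17 measured regulators of hepatokine genes 11 were negative (median -0.20), 0 passed, and an unadjusted p under 0.05 was reached by the repressor Nr0b2 (-0.57 ± 0.11 SE) and the coactivator Ppargc1a (0.46 ± 0.14 SE). In the males alone Ppargc1a was at 0.32 ± 0.14 (SE) and missed that p, while 3 regulators reached it, all negative.

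**Figure D3:**
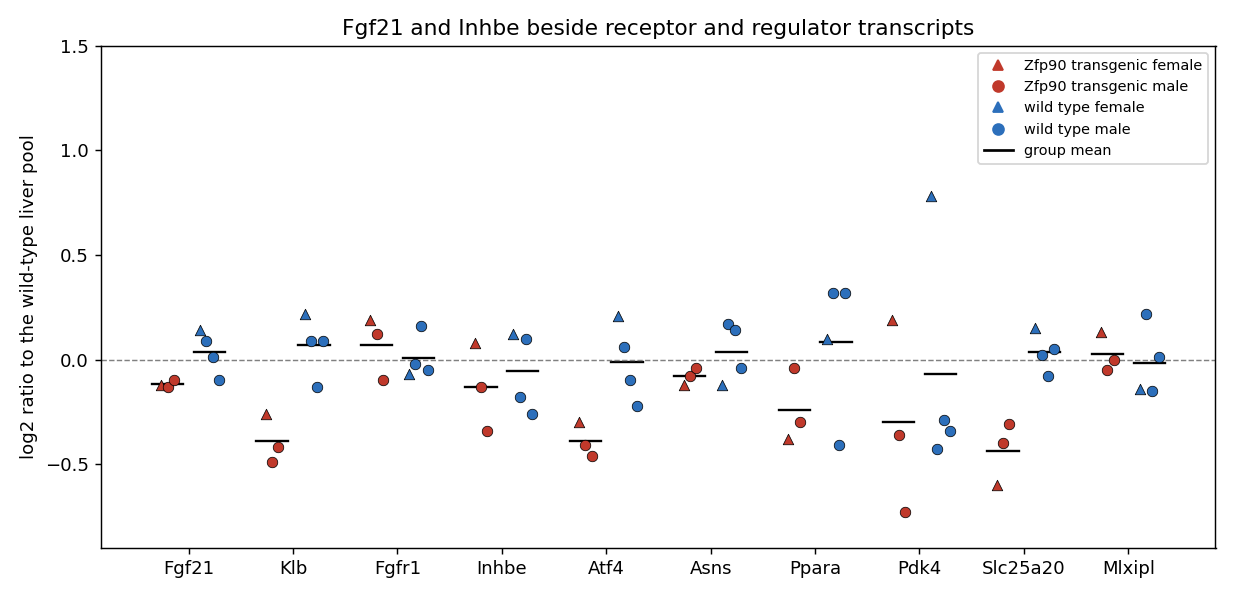
Log2 ratio to the wild-type liver pool (vertical axis) for Fgf21, Inhbe and 8 receptor, regulator or target genes (horizontal axis), 1 point per mouse, transgenic (red) left of wild type (blue), females as triangles and black lines at group means. Klb, Atf4 and Slc25a20 do not overlap between genotypes, while Fgf21, Inhbe and the remaining genes do.

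Among partners of the other members none passed. Their counts at an unadjusted p under 0.05 in limma stand beside 6.91% of all features. Of 10 angiopoietin-like and lipase genes measured, 8 were negative (median -0.07) and 0 had an unadjusted p under 0.05, with lipoprotein lipase (Lpl) at -0.01 ± 0.14 (SE). Of 10 cystatin-related genes and insulin or asialoglycoprotein receptor genes, 0 reached it either (median 0.02), Hrg at 0.03 ± 0.13 (SE) among them. In the activin family 2 of 13 did (median -0.01): Inhba, the subunit beta A, at 0.62 ± 0.25 (SE), and the co-receptor Tgfbr3 at -0.46 ± 0.14 (SE), while Inhbc, the other liver subunit, stood at -0.02 ± 0.09 (SE). In the males alone 1 did, Inhba, at 1.02 ± 0.13 (SE), with -0.34 between the females (interaction adjusted p = 0.223 in limma), while Tgfbr3 was at -0.30 ± 0.13 (SE). In retinol transport and storage 3 of 14 did, all positive (median 0.02): the retinoic acid hydroxylase Cyp26a1 (0.73 ± 0.16 SE), the retinol dehydrogenase Rdh11 (0.77 ± 0.23 SE) and the retinal dehydrogenase Aldh1a1 (0.37 ± 0.15 SE), against 1 in the males alone, Cyp26a1, with Aldh1a1 at 0.18 ± 0.12 (SE). Transthyretin (Ttr), which binds the Rbp4 protein in plasma, was at 0.02 ± 0.10 (SE). Of 8 receptors and partners named for Lect2 and Prg4 2 did (median -0.06), Tlr4 at 0.40 ± 0.14 (SE) and the integrin Itgb1 at -0.56 ± 0.21 (SE), with the Lect2 receptor Met at -0.08 ± 0.11 (SE). With the males alone, 2 positive genes and 1 negative gene of this list did, and Itgb1, at -0.41 ± 0.24 (SE), did not.

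Among 25 measured further liver-secreted factors, 12 differences were positive and 13 negative (median -0.03), and 0 passed. An unadjusted p under 0.05 was reached by 1 positive gene, the TAM receptor ligand Gas6 (0.62 ± 0.16 SE), and by 3 negative ones. These were the IGF-binding protein Igfbp2 (-0.82 ± 0.19 SE), the IGF carrier subunit Igfals (-0.70 ± 0.19 SE) and the ER-resident Manf (-0.40 ± 0.16 SE). Igfbp2 read -0.58, -0.85 and -0.87 in transgenic and 0.13, 0.17, -0.48 and 0.31 in wild-type mice, without overlap. With the males alone, 4 positive and 2 negative genes of this list reached that p, and its median was 0.10. Over all mice, Igfbp2 came nearest to Prg4 in size among these secreted factors, on the other side.

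Some acute phase and macrophage transcripts ran beside Prg4 and others did not, and their part in its difference was not tested. The gene nearest to Prg4 over the 7 arrays was Steap4, a metalloreductase, with a root mean square difference of 0.239 in log2 ratio, where the median named gene stood at 0.715. Steap4 read 0.50, 0.84 and 0.84 in transgenic and 0.19, -0.13, -0.23 and -0.09 in wild-type mice. Next came Ttc23 (0.251) and Ppp1r42 (0.256). These genes were picked by closeness to Prg4 on these same arrays, so a like split between the genotypes follows from that choice. Of 14 measured acute phase genes that inflammation raises, 11 were positive (median 0.14), 0 passed and 4 had an unadjusted p under 0.05, all positive, with Saa2 the largest (1.63 ± 0.34 SE), and 7 did in the males alone. Lbp, Crp and Lcn2 were on the negative side, at -0.40, -0.17 and -0.06, and between the 2 females Saa1 was too, at -0.28. The 7 measured genes that inflammation lowers had a median of 0.10, with albumin (Alb) at 0.10 ± 0.11 (SE) and 0 of 7 at an unadjusted p under 0.05.

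Macrophage and Kupffer cell markers were positive in 8 of 9 measured (median 0.46), 0 passed, and 3 had an unadjusted p under 0.05, Cd163, Marco and Folr2. Near 0 were Cd68, at 0.045 ± 0.12 (SE), and Adgre1, the 1 negative marker, at -0.044 ± 0.39 (SE). In the males alone 7 of the 9 markers had an unadjusted p under 0.05. Between the 2 females Marco and Folr2 differed by -0.14 and -0.17, and Cd163 by 1.10. The median of the 9 markers was 0.43, 0.38 and 0.23 in transgenic and 0.85, -0.58, -0.67 and -0.11 in wild-type mice. It was highest on the wild-type female's array, where Prg4 read 0.14, so the marker medians of the genotypes overlapped. Cd163, a haemoglobin scavenger receptor, read 1.26, 0.79 and 1.34 in transgenic and 0.16, 0.00, 0.14 and -0.49 in wild-type mice, without overlap.

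**Figure D4:**
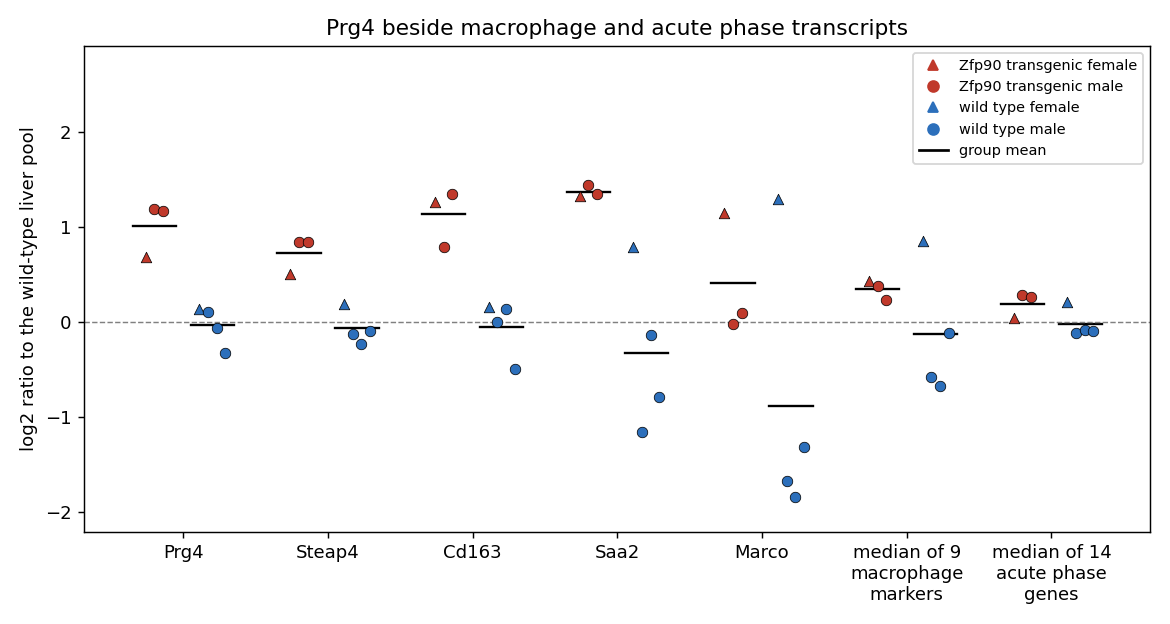
Log2 ratio to the wild-type liver pool (vertical axis) for Prg4, 4 acute phase or macrophage genes and the medians of the macrophage and acute phase lists (horizontal axis), 1 point per mouse, transgenic (red) left of wild type (blue), females as triangles and black lines at group means. Prg4, Steap4, Cd163 and Saa2 do not overlap between genotypes, while the wild-type female's array has a macrophage median of 0.85 and a Prg4 ratio of 0.14. Steap4 is the gene nearest to Prg4 on these same arrays, so its like pattern follows from that choice.

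Markers of other cell types had medians nearer 0, and 0 passed. Adipocytes, which also make Angptl4 and Rbp4, had a marker median of 0.01 over 6 measured genes, and adiponectin (Adipoq) differed by 0.02. Medians were 0.06 for 9 stellate cell, 0.02 for 10 endothelial, 0.09 for 7 bile duct and 0.08 for 6 exocrine pancreas markers, and -0.19 for 12 hepatocyte markers. An unadjusted p under 0.05 was reached by 1 adipocyte marker (Cidec, positive), 3 stellate cell markers, 0 endothelial and bile duct markers and 1 pancreas marker (Cela1). The stellate cell markers were Pdgfrb (0.38), Col1a1 (0.28) and, on the negative side, Reln (-0.32). In the males alone Pdgfrb and Col1a1 still reached that p and Reln did not. Neither Cidec nor Cela1 reached that p in the males alone, where 1 adipocyte marker with a negative difference did. Of the hepatocyte markers 5 had an unadjusted p under 0.05, 1 positive and 4 negative, and 2 in the males alone, while the hepatocyte-made members Ahsg and Rbp4 did not.

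For Lect2 and Inhbe, the members with the widest ranges after Prg4, the nearest genes were Taf1a, Nfrkb and Adamts10 (root mean square difference 0.101 to 0.107) and Anln, Ap5b1 and C1qtnf7 (0.028 to 0.044). The median named gene stood at 0.257 from Lect2 and 0.255 from Inhbe. Lect2 and its neighbours were lowest on wild-type male 4, at -0.42, -0.30, -0.36 and -0.44. The neighbours were picked by closeness on these same arrays, so the shared low value follows from that choice.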

How the data were processed

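The authors deposited 1 log ratio per probe and mouse for 23574 probes. Background correction, normalization and the combination of dye swaps are not given in the sources used here. Values end at -2 and 2, which fixed the log base. The Y-linked Kdm5d was -2.54 and -3.22 on the female arrays and 0.14 to 0.66 on the male arrays, so positive values were read as mouse over pool. Arrays correlated below -0.3 over all features in 3 pairs (lowest -0.495); centring stays unknown, and with every sign turned each difference changes sign and keeps its p.

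For log2, the deposited ratios, read as log10, were multiplied by 3.32. Platform annotation named 17824 probes by 1 symbol, 50 by several and 5700 by none; 17724 matched the RefSeq gene table by gene number, and 0 symbols changed. Probes of 1 gene were averaged. Differences come from limma 3.58.1 (R 4.3.3; lmFit, eBayes) with genotype and sex, adjusted by Benjamini-Hochberg over 22218 features; the interaction had its own model. The fit was also run on simulated data with independent noise per feature. That run does not cover correlation between features, so it does not show how calls behave in these data. Replicates are separate mice. The members, gene lists and rule for naming genes (members, their textbook partners and the smallest p-values of each list) were chosen with earlier results of these data known.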

Additional observations from a re-analysis of the deposited data

How the results depend on the processing

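The count of 0 members past the threshold held for genotype, for sex and for their interaction under each alternative that was fitted: centring, quantile normalization, robust variance, the largest ratios by size (a feature set that holds 4 of the 9 members), named genes alone, single probes and, for genotype and sex, leaving out each mouse, and for genotype also no sex term and males alone. Of 130 member differences between genotypes recomputed this way, 129 kept direction and call, and 1 reversed: Lect2, which ran from -0.061 (without wild-type male 4) to 0.17 with 1 mouse left out. Robust variance, single probes, named genes alone and the largest ratios leave each member's difference as it was, so no direction could change there. Leaving out either female repeats the males-alone fit, so the same differences enter the 130 repeatedly. Prg4 ran from 0.95 to 1.27 with adjusted p from 0.0921 to 1.0 in limma. The count over all features, 0, became 7 in the males alone and 4 among the features with the largest ratios, and ran from 0 to 7 with 1 mouse left out, 7 being the count without either female. Counts at an unadjusted p under 0.05 in the 20 other lists, recomputed in the males alone as an alternative chosen after seeing the data, stayed within 1.5 times for 13 lists and moved for 7, among them macrophage markers (7 in the males alone, 3 in all mice) and acute phase genes (7 and 4). No paired analysis was possible because the labels do not mark pairs of transgenic and wild-type mice. Signal over background is unknown.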
